A study of Mus musculus with 6 samples.

Results

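The sarcomeric myosin heavy chain genes compared here are the 8 genes Myh1, Myh2, Myh3, Myh4, Myh6, Myh7, Myh7b and Myh8. They were taken by their symbols from the 24411 genes of the count table. All 8 were listed and all 8 passed edgeR's expression filter, which 12828 genes passed. RNA from whole soleus (Sol), the slow-twitch fiber-dominant calf muscle, was sequenced after voluntary wheel running (VWR) in 3 WT and 3 LSD1-mKO mice. LSD1-mKO mice carried homozygous floxed Lsd1 alleles and an ACTA1-CreERT2 transgene, which drives a tamoxifen-dependent Cre from the human ACTA1 promoter in differentiating and differentiated muscle cells. WT mice carried the floxed alleles without the transgene. All mice were male, were 8 weeks old when VWR began, were housed singly and had the wheel for 38 days; after the 3 days in which they grew used to it, all were given tamoxifen (75 mg/kg) on 5 days. Per the paper, the mice were fasted and held without the wheel before tissue was taken. No sedentary mice are in the series, so an effect of VWR itself cannot be measured. The transgene and the loss of LSD1 occur together in these mice and cannot be told apart, and nuclei in which the promoter is silent keep Lsd1.

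Myosin heavy chain is the motor protein of the thick filament, and the isoform a muscle fiber makes sets how fast it contracts and at what energy cost. In adult mice Myh7 marks slow type I fibers, Myh2 fast oxidative type IIA fibers, Myh1 type IIX fibers and Myh4 the fastest, most glycolytic type IIB fibers. Myh3 and Myh8 encode the embryonic and perinatal chains, which return in regenerating fibers. Myh6 encodes the alpha chain of the heart, and Myh7b, an ancient relative of Myh7, carries in an intron a microRNA that favors the slow program. Mouse Sol is built mainly from type I and type IIA fibers.

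The genes lie in 3 places in GRCm38, the assembly that mm10 names. On chromosome 11 the plus strand carries Myh3 (chr11:67078300-67102291), Myh2 (chr11:67171027-67197517), Myh1 (chr11:67200052-67224575), Myh4 (chr11:67238029-67260446) and Myh8 (chr11:67277124-67308634). Myh2 and Myh1 are neighbors, 2534 bases apart. On the minus strand of chromosome 14, Myh6 (chr14:54941921-54966927) lies 3756 bases from Myh7 (chr14:54970684-54994626). Myh7b stands alone on the plus strand of chromosome 2 (chr2:155611212-155634307). The longest coding transcripts in GENCODE vM21 have 39 to 42 exons and are 6016 to 6230 bases long.

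The promoters of the adult and perinatal genes of the chromosome 11 cluster share a word. In the 250 bases before the RefSeq start, Myh2, Myh1, Myh4 and Myh8 hold the same 14 bases, and of the 32851 promoters in the RefSeq table (GRCm38.p6) these 4 alone hold it on either strand (0.0122%). The word is shown because it is the longest sequence common to these 4 promoters, with 12 bases on each side and the shared word in capitals, 5′ to 3′ on the plus strand.
Myh2 (chr11:67170890-67170927): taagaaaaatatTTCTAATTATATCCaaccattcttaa
Myh1 (chr11:67199930-67199967): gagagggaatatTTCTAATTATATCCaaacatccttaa
Myh4 (chr11:67237642-67237679): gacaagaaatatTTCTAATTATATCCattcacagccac
Myh8 (chr11:67277058-67277095): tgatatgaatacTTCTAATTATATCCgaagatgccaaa
The word began 125 bases before the RefSeq start in Myh2, 160 in Myh1, 158 in Myh4 and 54 in Myh8. The RefSeq start equals the GENCODE gene start given above for Myh2 and Myh8, lies 50 bases downstream of it for Myh1 (chr11:67200102) and lies upstream of it for Myh4 (chr11:67237812). Letters that match the MEF2 consensus were found on either strand in the windows of Myh1, Myh4 and Myh8, and in 2.92% of all promoters. CATTCC, the core of the site that TEAD factors bind, was found in the windows of Myh7, Myh1, Myh4 and Myh6, and in 12.6% of all promoters. TNAAGGTCA, an extended half-site of estrogen-related receptors, was found in the window of Myh7b and in 1.14% of all promoters. These are matches of letters, and binding was not measured.

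The myosin genes Myh6, Myh7 and Myh7b each hold a microRNA in an intron. Myh3 also holds one, Mir6923, whose sequence is not shown here. The mature sequences from RefSeq for Myh6, Myh7 and Myh7b are shown because these hosts are among the genes compared. The seed, bases 2 to 8, is in capitals.
miR-208a-3p (host Myh6): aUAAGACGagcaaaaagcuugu
miR-208b-3p (host Myh7): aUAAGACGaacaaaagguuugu
miR-499-5p (host Myh7b): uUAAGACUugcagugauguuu
The first pair share the seed UAAGACG, and miR-499-5p has UAAGACU. Each hairpin gene was listed at 0 in 6 of 6 libraries, and since the libraries were made from poly(A) RNA, mature microRNAs were not measured.

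Total estimated counts per library ranged from 8940206 to 10989846 in WT (median 10366443) and from 10984664 to 13798059 in LSD1-mKO (median 13563881). Kdm1a, which encodes LSD1, had levels of 40.5, 38.2 and 33.6 CPM (counts per mega-read of library size, scaled by TMM) in WT 1 to 3, against 14.6, 16.6 and 16.6 in LSD1-mKO 1 to 3, so the groups did not overlap. On average, LSD1-mKO mice held 42.6% of the WT level. The tissue label was checked against Myh7, Myh2 and the slow troponin gene Tnni1, which was at 1466 CPM or more in every library. Its fast counterpart Tnni2 was higher, at 3506 to 5182 CPM, so the troponin genes do not single out a slow muscle. The atrial light chain gene Myl7 was listed at 0 in every library.

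The family took 4.36, 3.49 and 4.10% of all counts in WT 1 to 3 and 3.85, 3.32 and 3.66% in LSD1-mKO 1 to 3, and the groups overlapped (exact permutation test, 2-sided, p = 0.3). Nearly all of it came from Myh2, Myh7 and Myh1, which together made up 99.06 to 99.57% of the family total in every mouse. Shares are given as counts per kilobase of transcript of a gene over the same sum for all 8 genes.

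Myh2, the type IIA chain, was the most abundant in 6 of 6 mice. Its share was 56.9, 55.6 and 52.2% in WT 1 to 3 and 52.3, 45.3 and 53.7% in LSD1-mKO 1 to 3. Myh7, the type I chain, followed with 31.7, 36.4 and 35.1% in WT and 36.6, 43.2 and 29.5% in LSD1-mKO. LSD1-mKO mice held the highest and the lowest Myh7 share of the series, and the WT mice lay between them. Myh1, the type IIX chain, took 10.99, 7.29 and 11.7% in WT and 10.5, 10.98 and 16.3% in LSD1-mKO. LSD1-mKO 3 had the highest Myh1 share and the lowest Myh7 share, and WT 2 had the lowest Myh1 share.

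**Figure D1:**
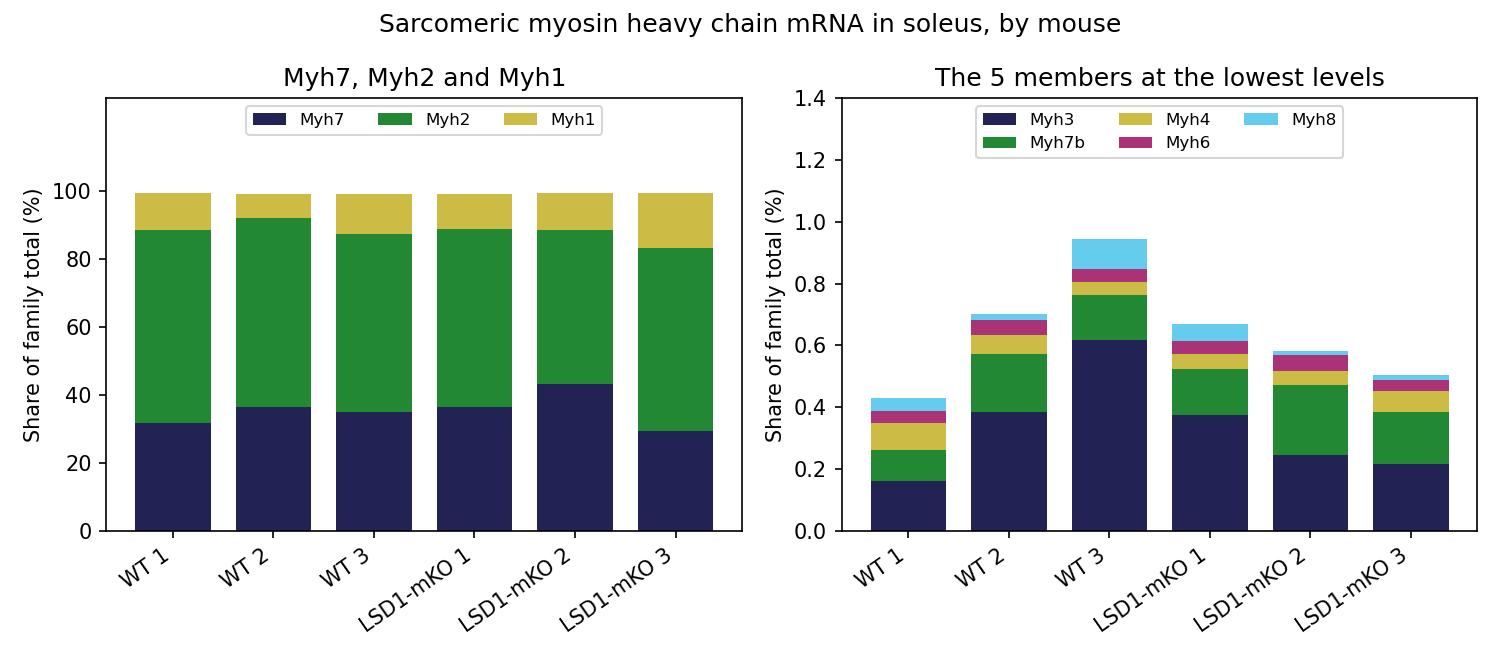
Share of the family total (percent of counts per kilobase, y axis) in each of the 3 WT and 3 LSD1-mKO mice (x axis); the left panel stacks Myh7, Myh2 and Myh1, and the right panel, on its own scale, the other 5 members. Myh7, Myh2 and Myh1 fill at least 99.06% of every bar, and the other 5 sum to at most 0.944%, in WT 3.

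The remaining 5 genes summed to 0.429, 0.702 and 0.944% of the family in WT 1 to 3 and to 0.668, 0.582 and 0.504% in LSD1-mKO 1 to 3. Myh3 contributed 0.163 to 0.618% and Myh7b 0.0990 to 0.224%. Myh4, the type IIB chain, contributed 0.0407 to 0.0881%. Myh6 contributed 0.0346 to 0.0525% and Myh8 0.0130 to 0.0962%.

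Ordered by CPM per kilobase averaged over the 6 mice, the levels ran Myh2 (3289), Myh7 (2182), Myh1 (706.8), Myh3 (20.5), Myh7b (9.83), Myh4 (3.72), Myh6 (2.65) and Myh8 (2.59). Myh2 was above Myh7 in 6 of 6 mice, by 1.05 to 1.82 times, and Myh7 above Myh1 by 1.81 to 5.00 times. The widest step was from Myh1 to Myh3, a ratio of 34.4 between the means and of 18.9 to 75.7 within mice. Myh3 was above Myh7b, and Myh7b above Myh4, in 6 of 6 mice. The lowest neighbors did not separate: Myh4 was above Myh6 in 4 of 6 mice and Myh6 above Myh8 in 3 of 6.

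**Figure D2:**
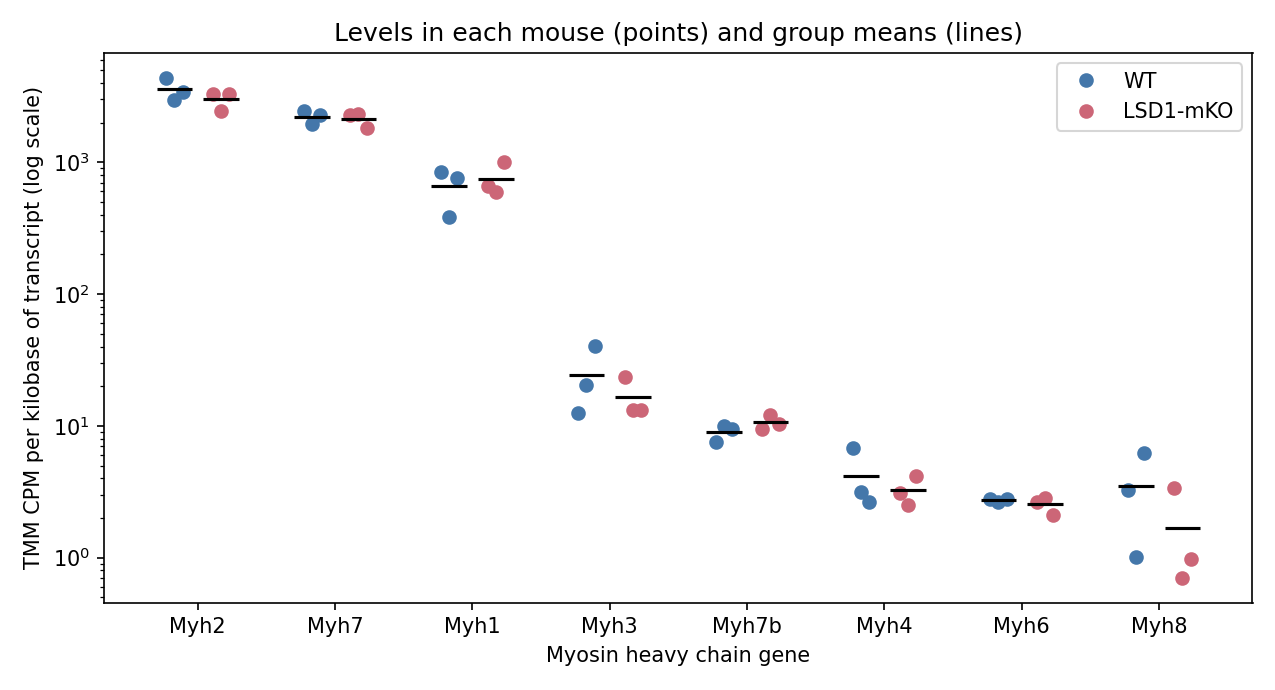
Level of each gene in CPM per kilobase of transcript (y axis, log scale) by gene (x axis), with 3 WT mice in blue, 3 LSD1-mKO mice in red and a line at each group mean. Myh2, Myh7 and Myh1 lie at 386.9 or more in every mouse and the other 5 genes at 40.3 or less, and the genotypes overlap for each gene.

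The question of the comparison was how loss of LSD1 in muscle alters the Sol transcriptome after VWR. None of the 8 genes passed an adjusted p of 0.05 in edgeR's quasi-likelihood test, against 2 of all 12828 genes (0.0156%). At an unadjusted p under 0.05 the count was 0 of 8, against 6.4% of all genes. In 0 of 8 genes did the 3 LSD1-mKO mice lie entirely above or below the 3 WT mice in CPM, against 12.7% of all genes. A count of 0 of 8 is near each of these backgrounds and is no result about the family. The fitted change was upward for Myh1 and Myh7b and downward for the other 6, with a median log2 fold change of -0.18 against -0.02 for all genes. No gene passed under DESeq2, limma voom or any of the other alternatives, and the lowest adjusted p among them was 0.308, for Myh3 without WT 1.

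Myh7 was at 15150, 12050 and 14280 CPM in WT 1 to 3 and at 14330, 14520 and 11230 CPM in LSD1-mKO 1 to 3. The ranges nearly coincide. The log2 fold change was -0.05 (SE 0.18, adjusted p = 0.967, edgeR), with a 95% interval from 0.723 to 1.29 times the WT level. Without WT 1 it was 0.023 and without LSD1-mKO 3 it was 0.062.

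Myh2 was at 26500, 17950 and 20730 CPM in WT and at 20030, 14850 and 19990 CPM in LSD1-mKO. WT 1 was the highest and LSD1-mKO 2 the lowest, and the other 4 mice lay between 17950 and 20730. The log2 fold change was -0.25 (SE 0.22, adjusted p = 0.864, edgeR), with an interval from 0.593 to 1.20 times WT. Without WT 1 the log2 fold change was -0.08. The Myh2 share averaged 54.9% ± 2.38 (SD, n = 3) in WT against 50.4% ± 4.53 (SD, n = 3) for LSD1-mKO, a difference of -4.46 percentage points (exact permutation test, 2-sided, p = 0.3, where 3 mice against 3 cannot go below 0.1). It was -1.88 points without LSD1-mKO 2 and -6.10 without LSD1-mKO 3.

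Myh1 was at 5124, 2353 and 4635 CPM in WT and at 4004, 3602 and 6072 CPM in LSD1-mKO. WT 2 was the lowest and LSD1-mKO 3 the highest. The log2 fold change was 0.18 (SE 0.31, adjusted p = 0.932, edgeR), with an interval from 0.694 to 1.84 times WT, and it turned to -0.10 without WT 2 and to -0.09 without LSD1-mKO 3. The Myh1 share differed by 2.60 points and the Myh7 share by 1.97 points (exact permutation tests, p = 0.6 and p = 0.7). Without LSD1-mKO 3 these were 0.731 and 5.44 points, and without LSD1-mKO 2 the Myh7 difference turned to -1.42. The SD of the Myh7 share was 2.43 points in WT and 6.86 points in LSD1-mKO. In CPM, the SD of Myh7 was 11.6% of the mean in WT and 13.8% in LSD1-mKO. For Myh2 it was 20.1 and 16.3%, and for Myh1 36.6 and 29.1%. A difference in spread was not tested.

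Ratios within a mouse, which need no normalization between libraries, were computed after the levels had been seen. Myh2 over Myh7 was 1.79, 1.525 and 1.49 in WT 1 to 3 and 1.43, 1.05 and 1.82 in LSD1-mKO 1 to 3 (exact permutation test, p = 0.5). The LSD1-mKO mice held both ends of this range, as they did for the Myh7 share, which comes from the same counts. Myh1 over Myh2, the balance of type IIX and IIA chains, was 0.193, 0.131 and 0.224 in WT and 0.200, 0.243 and 0.304 in LSD1-mKO (exact permutation test, p = 0.2). The groups overlapped in LSD1-mKO 1, which lay below WT 3.

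**Figure D3:**
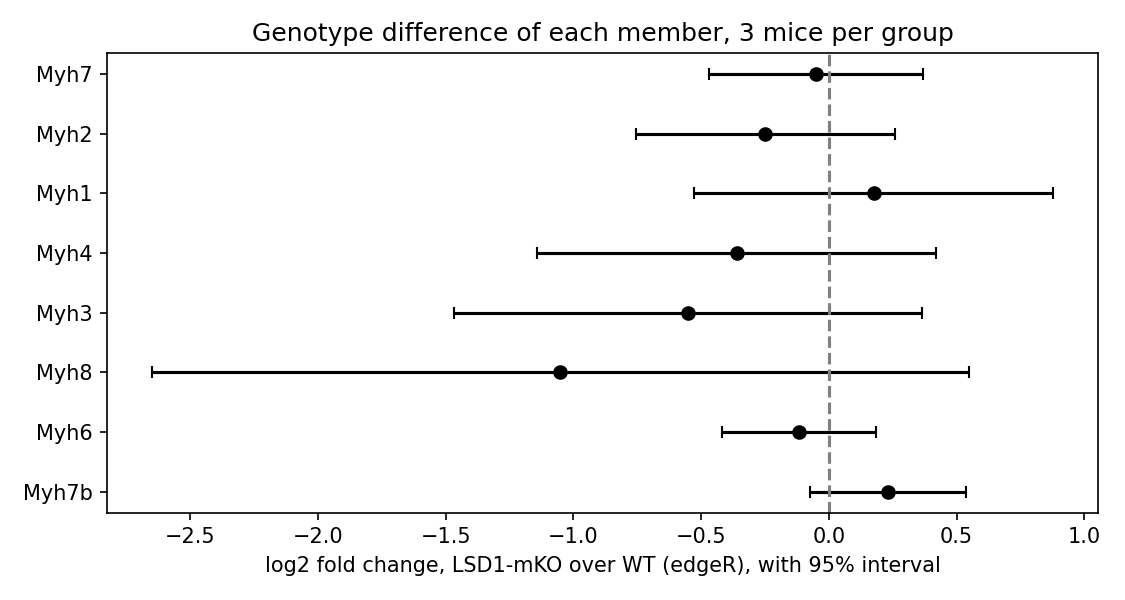
Log2 fold change of each gene in LSD1-mKO over WT (x axis, points) with its 95% interval from the edgeR fit (bars), by gene (y axis), for 3 mice per group. Every interval includes 0; the narrowest is that of Myh6 (0.749 to 1.14 times WT) and the widest that of Myh8 (0.159 to 1.46 times WT).

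Myh4 was at 40.6, 19.1 and 16.0 CPM in WT and at 18.5, 15.0 and 25.1 CPM in LSD1-mKO. WT 1 stood above the other 5 mice. The log2 fold change was -0.36 (SE 0.34, adjusted p = 0.868, edgeR), and without WT 1 it was 0.15.

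Myh3, the embryonic chain, was at 75.2, 123 and 243.2 CPM in WT and at 142.1, 80.2 and 79.5 CPM in LSD1-mKO. WT 3 held the highest value and WT 1 the lowest, 3.23 times apart within the same genotype. The log2 fold change was -0.55 (SE 0.40, adjusted p = 0.818, edgeR), and it was 0.02 without WT 3. Myh8, the perinatal chain, was at 19.9, 6.21 and 38.6 CPM in WT and at 20.7, 4.34 and 5.96 CPM in LSD1-mKO, 8.88 times between the lowest and the highest mouse. Its log2 fold change was -1.05 (SE 0.70, adjusted p = 0.794, edgeR), moving to -0.30 without WT 3 and to -2.08 without LSD1-mKO 1. The lowest Myh8 value rested on 59.5 estimated counts. As the tissue was taken whole, fewer fibers with a transcript and less transcript per fiber cannot be told apart, here and for every gene above.

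Other genes of immature or regenerating fibers were compared beside Myh3 and Myh8. Of 11 such genes, 9 were listed and 8 tested, and 0 passed the threshold. Myl4, the embryonic light chain, was at 12.5, 19.6 and 26.7 CPM in WT and at 16.4, 11.4 and 9.87 CPM in LSD1-mKO (log2 fold change -0.65, SE 0.28, adjusted p = 0.766, edgeR). It was the only tested gene of the list at an unadjusted p under 0.05 (12.5%, against 6.4% of all genes). A count of 1 gene of 8 is no result about the list. Like Myh3, Myl4 was highest in WT 3, and in each genotype WT 3 and LSD1-mKO 1 led. Of the other tested genes, Ncam1 and Runx1 were also highest in WT 3, while Chrna1, Tnnt2, Pax7, Myf5 and Actc1 were not. The satellite cell genes Pax7 and Myf5 had log2 fold changes of 0.18 (SE 0.31) and 0.29 (SE 0.30). Actc1, the cardiac actin of developing muscle, was higher in all LSD1-mKO mice than in all WT mice, at a log2 fold change of 0.19 (SE 0.09, adjusted p = 0.766, edgeR). It was the 1 gene of the 8 without overlap (12.5%, against 12.7% of all genes), which is at the background. Runx1, a factor raised in denervated muscle, had -0.19 (SE 0.21).

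Fibroblast genes were highest in the mouse with the most Myh3. Col1a1, a collagen of fibroblasts, was at 221, 571 and 794.4 CPM in WT and at 440.2, 146.1 and 166.7 CPM in LSD1-mKO, and all 6 fibroblast markers, like Myh3, were highest in WT 3. Each of the 6 had a lower fitted level in LSD1-mKO (median log2 fold change -0.73), and 0 passed the threshold. The changes were unequal. The collagen genes Col1a1, Col1a2 and Col3a1 had -1.075, -0.947 and -1.004 (SE 0.50 to 0.60) and Lum -0.51 (SE 0.38). Pdgfra had -0.14 (SE 0.34) and Dcn -0.04 (SE 0.24). The summed level of the 6 ranged from 1329 to 4395 CPM in WT and from 1361 to 2801 CPM in LSD1-mKO, and none was at 0. The 5 immune markers were also fitted lower, with a median of -0.62, 0 called, and sums of 24.0 to 103.0 CPM in WT and 29.1 to 67.3 CPM in LSD1-mKO, but all 5 were highest in WT 2, where Myh3 was not. Their part in the Myh3 and Myh8 values was not tested.

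**Figure D4:**
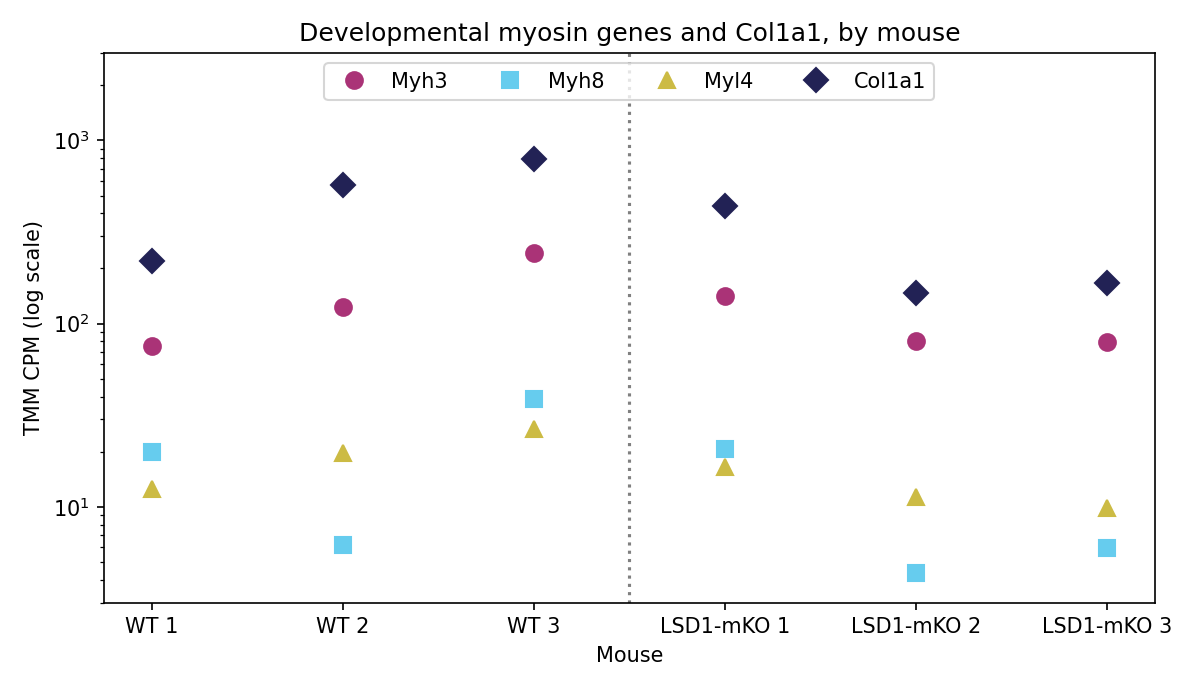
Level in CPM (y axis, log scale) of Myh3, Myh8, Myl4 and Col1a1 in each mouse (x axis), with a dotted line between the genotypes. All 4 genes are highest in WT 3, and within LSD1-mKO all 4 are highest in LSD1-mKO 1. Chrna1, Tnnt2, Pax7, Myf5 and Actc1, which are not drawn, are highest in other mice.

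Myh6, the cardiac alpha chain, was at 17.1, 16.3 and 17.2 CPM in WT and at 16.3, 17.3 and 12.95 CPM in LSD1-mKO (log2 fold change -0.12, SE 0.13, adjusted p = 0.890, edgeR). LSD1-mKO 3 was the lowest for Myh6 and also for Myh7. Per kilobase, Myh6 was at 0.115 to 0.138% of Myh7 in the 6 mice. Of 8 cardiac markers only Gja1, a gap junction gene that other cells use as well, passed the filter (log2 fold change -0.35, SE 0.36, adjusted p = 0.877, edgeR). The summed level of the 8 was at most 53.2 CPM in WT and 36.3 CPM in LSD1-mKO, the natriuretic peptide genes Nppa and Nppb had at most 3 counts in any library, and Myl7 was at 0.

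Myh6 and Myh7 also share sequence. Of the 6039 windows of 75 bases, the read length, in the Myh6 transcript, 15.5% occur unaltered in Myh7. The longest run, 245 bases, lies in exons 32 to 33 of Myh7 and exons 30 to 31 of Myh6, at positions 4240 to 4484 of the Myh7 coding sequence and 4246 to 4490 of that of Myh6 (genomic span, with the intron, chr14:54974947-54975347 for Myh7 and chr14:54948327-54948725 for Myh6). It is printed, in the sense of the mRNA, because no 75-base read from within it can be given to either gene by its sequence.
Myh7 and Myh6: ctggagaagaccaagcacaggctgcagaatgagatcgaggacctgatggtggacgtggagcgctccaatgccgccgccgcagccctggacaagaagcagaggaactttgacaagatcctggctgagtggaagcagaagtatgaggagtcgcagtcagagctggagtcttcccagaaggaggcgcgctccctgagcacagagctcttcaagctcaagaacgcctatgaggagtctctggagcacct
Across the 6 mice the log2 CPM of Myh6 and Myh7 had a Pearson r of 0.84, given as a description over libraries that share their normalization. The part of Myh7 reads in the Myh6 count was not tested, so the Myh6 level is uncertain.

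The same holds within the chromosome 11 cluster. Myh2 and Myh1 share 12.6% of their windows and a longest run of 268 bases. Of the Myh4 windows, 9.37% occur in another member, and 12.9% of the Myh8 windows occur in another gene. Myh4 shares 4.90% of its windows with Myh1 and 3.79% with Myh2. Per kilobase it was at 0.349 to 0.820% of Myh1 and at 0.0780 to 0.155% of Myh2. The log2 CPM of Myh4 had a Pearson r of 0.465 with Myh1 and 0.82 with Myh2 (n = 6 mice, a description). Myh8 was at 0.0289 to 0.184% of Myh2 per kilobase. The part of reads from other members in the Myh4 and Myh8 counts was not tested. Myh3 shares 1.86% of its windows with other genes, and Myh7b shares 0. The deposited counts followed the same division: those of Myh7b were whole numbers in 6 of 6 libraries, and those of the other 7 genes were not whole in any library. Levels of Myh4, Myh6 and Myh8, which are low beside members of like sequence, are uncertain for this reason. Antisense transcripts overlap exons of several members, among them Myh7 (Mhrt, 484 bases, 41.8 to 111 counts per library) and Myh1 (Myhas, 515 bases). The coding gene Trpc4ap overlaps 37 exon bases of Myh7b from the opposite strand, at 1444 to 2253 counts per library. As no use of strand in the counting is stated, reads of either origin cannot be told apart in these overlaps.

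Myh7b, whose read-length windows did not recur in the same sense in another gene's transcripts, was at 46.8, 61.9 and 58.5 CPM in WT. In LSD1-mKO it was at 57.9, 74.5 and 64.0 CPM. LSD1-mKO 2 was the highest, WT 1 the lowest, and LSD1-mKO 1 lay below WT 2 and WT 3. Its log2 fold change of 0.23 (SE 0.13, adjusted p = 0.777, edgeR) had an interval from 0.949 to 1.45 times WT and stayed between 0.12 and 0.31 when 1 mouse was left out. Myh7b ran opposite to Myh2: WT 1 had the most Myh2 and the least Myh7b, LSD1-mKO 2 the reverse, and Pearson's r of their log2 CPM was -0.96. This is the strongest of the 28 pairs of members, picked for its size, over 6 libraries that share their normalization. Between Myh7b and Myh7, the other slow gene, r was -0.35.

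Fiber-type partners of the heavy chains were compared by lists of 14 slow and 14 fast sarcomere and calcium-handling genes. Of the slow partners, 0 passed the threshold, 9 were fitted higher and 5 lower, and the median log2 fold change was 0.09. The slow calcium pump gene Atp2a2 had 0.31 (SE 0.18), the slow tropomyosin Tpm3 0.22 (SE 0.17), the slow troponin Tnnc1 0.17 (SE 0.15) and the slow myosin-binding protein C Mybpc1 -0.20 (SE 0.16), with adjusted p from 0.777 to 0.865 (edgeR). Of the fast partners, 0 passed, 4 were fitted higher and 10 lower, with a median of -0.10.

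Actn3, the alpha-actinin of fast glycolytic fibers, had the largest fitted change of the fast list. It was at 91.9, 63.6 and 198 CPM in WT 1 to 3 and at 497.5, 164.7 and 341.2 CPM in LSD1-mKO 1 to 3, and LSD1-mKO 2 lay below WT 3. The log2 fold change was 1.503 (SE 0.48, adjusted p = 0.636, edgeR). Actn3 alone in the list had an unadjusted p under 0.05 (7.14% of the list, against 6.4% of all genes), which is near the background. Myh4, the heavy chain of the fibers richest in Actn3, was highest in WT 1, where Actn3 was low. The log2 levels of Myh4 and Actn3 gave Pearson r = -0.25 over the 6 mice (exact permutation p = 0.671, adjusted 0.931) and Spearman rho = -0.20 (exact permutation p = 0.714), and r was -0.10 without the 2 mice farthest from the Myh4 median. The parvalbumin gene Pvalb and the light chain kinase gene Mylk2 had log2 fold changes of -0.49 (SE 0.45) and -0.29 (SE 0.18), and Sypl2, a protein of the triad membrane, -0.13 (SE 0.10).

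Of the 6 relations tested, each between a heavy chain and a partner or another heavy chain, none passed after Benjamini-Hochberg adjustment over the 6. Myh7 and the slow light chain Myl2 had r = 0.54 (exact permutation p = 0.278, adjusted 0.833) and rho = 0.14 (exact permutation p = 0.803). Without the 2 mice farthest from the Myh7 median r was -0.90, so the value rested on WT 2 and LSD1-mKO 3. Myh2 and Myh1 had r = 0.53 (exact permutation p = 0.256, adjusted 0.833), rho = 0.60 (exact permutation p = 0.242), and r = 0.84 without WT 1 and LSD1-mKO 2. The relations of Myh7 with Myh2, and of Myh1 and Myh4 with the fast light chain Mylpf, had r from -0.06 to 0.22, with adjusted p of 0.931 (exact permutation).

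**Figure D5:**
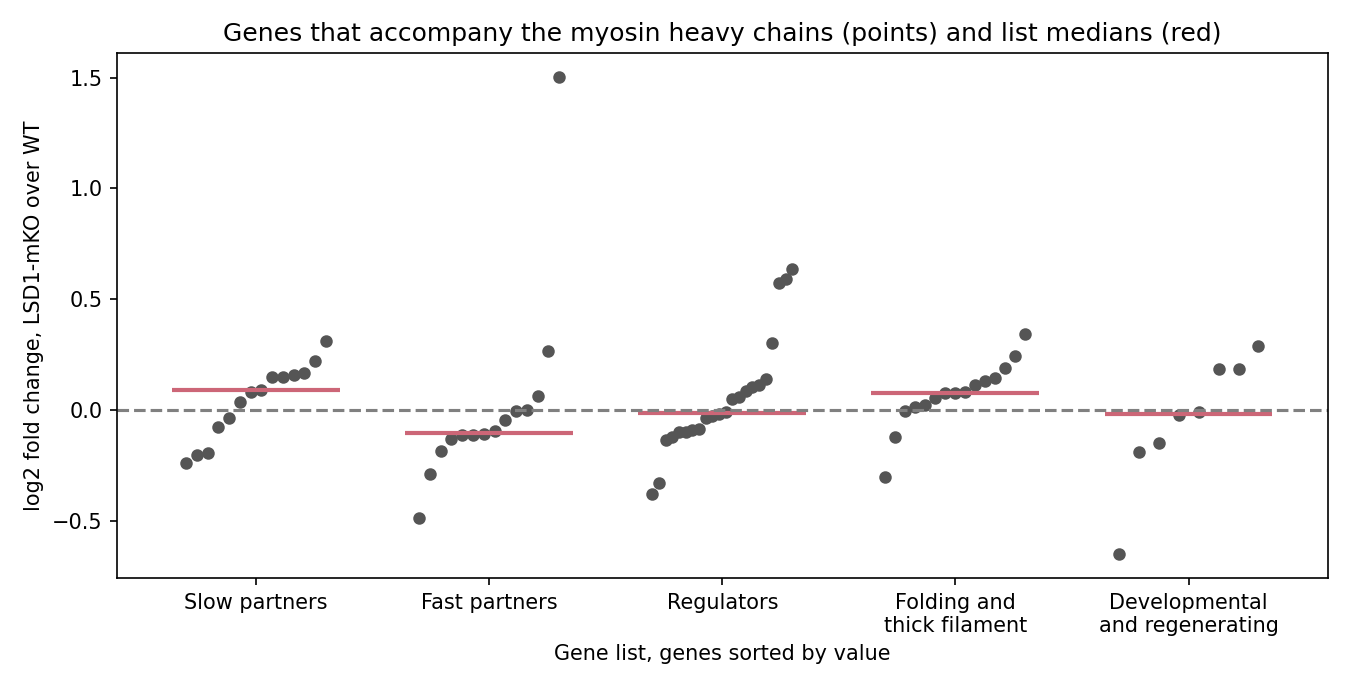
Log2 fold change in LSD1-mKO over WT (y axis) of the tested genes (points, sorted by value) of 5 lists (x axis), with the list median in red. The medians lie between -0.10 and 0.09; the highest point is Actn3 at 1.503, and the regulators Tead4, Mafa and Eya1 lie from 0.57 to 0.64.

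Transcription factors and signaling genes known to set which heavy chain a fiber makes were tested as a list of 22. Of these 0 passed the threshold, 4 were higher and 1 was lower in LSD1-mKO at an unadjusted p under 0.05 (22.7% of the list against 6.4% of all genes), and the median log2 fold change was -0.01. The groups did not overlap for 5 genes that were higher and 1 that was lower (27.3%, against 12.7% of all genes). Eya1, a transcriptional coactivator of fast fiber genes, was at 15.7, 12.8 and 12.7 CPM in WT and at 23.8, 17.7 and 19.4 CPM in LSD1-mKO (log2 fold change 0.57, SE 0.15, adjusted p = 0.534, edgeR). Tead4 was at 4.70, 4.77 and 5.86 CPM in WT and at 8.73, 8.25 and 6.89 CPM in LSD1-mKO (log2 fold change 0.64, SE 0.18, adjusted p = 0.578, edgeR), and Tead1 was above the WT range in each LSD1-mKO mouse, with a log2 fold change of 0.30 (SE 0.10, adjusted p = 0.631). TEAD factors bind promoters of many contractile genes.
Mafa, a large MAF factor linked to the type IIB program, had 0.59 (SE 0.21, adjusted p = 0.701, edgeR) at 3.86 to 8.58 CPM, and Hdac4, a repressor of MEF2, -0.38 (SE 0.14, adjusted p = 0.701). Sox6, which represses Myh7 in fast fibers, had -0.12 (SE 0.12), and the MEF2 genes Mef2a, Mef2c and Mef2d had 0.09 to 0.14.

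Genes that fold myosin or hold the thick filament were tested as a list of 15. None passed the threshold or an unadjusted p under 0.05, 12 were fitted higher and 3 lower, and the median log2 fold change was 0.08. Hsp90aa1, a chaperone of myosin folding, had 0.19 (SE 0.09, adjusted p = 0.766, edgeR) and Smyd1, a methyltransferase of the myofibril, 0.15 (SE 0.09, adjusted p = 0.781), and for both genes the LSD1-mKO mice lay above the WT mice. These were 2 of 15 genes (13.3%), close to the 12.7% of all genes. Of the others with the lowest p, the chaperone gene Hspa8 had 0.24 (SE 0.12), the methyltransferase gene Smyd2 -0.30 (SE 0.16) and Ttn, which encodes the giant protein titin, 0.34 (SE 0.20), and their groups overlapped. Unc45b, the dedicated myosin chaperone, had 0.08 (SE 0.13).

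The genes whose log2 CPM followed a heavy chain most closely over the 6 mice were sought among the 8484 genes with a mean of at least 10 CPM. They were Use1, Cnbp and Ddx46 for Myh7 (Pearson r 0.98), Dnajb4, N6amt1 and Rc3h1 for Myh2 (0.98), Syncrip, Nup133 and Ube2v2 for Myh1 (0.98 to 0.99), and Med25, Polr3b and Ppp2r1a for Myh4 (0.98). From 54 to 87 genes had an r above 0.9 with each heavy chain, and all values share the same 6 libraries and scaling, so these names are a description.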

How the data were processed

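Poly(A) RNA of Sol was sequenced by the authors as 75-base single-end reads and aligned with STAR to mm10, per the paper and the submitters' processing notes. The estimated counts that the authors deposited are per gene and not normalized, in 6 columns headed 1 to 6, matched here to the numbers that open the sample titles. The counting tool, its treatment of reads with several matches and of strand, and the annotation are not given in the sources used here. A deposited DESeq2 table (mean, log2 fold change, standard error, p-values) was not used.

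Counts were rounded and fitted with edgeR 4.0.16 in R 4.3.3 (TMM, filterByExpr, quasi-likelihood, 2-sided), with Benjamini-Hochberg adjustment over 12828 genes at a threshold of 0.05. Alternatives were DESeq2 1.42.0, limma 3.58.1 voom, other scalings, no filter, a replicate block and each mouse left out. Shares used the longest coding transcript of GENCODE vM21 and unrounded counts. Relations used log2(CPM + 0.5). Single values were compared by exact permutation in SciPy 1.17.1. Intervals are 95% from the fitted standard error. Each library is 1 mouse, and no pair of libraries was as alike as repeats of 1 library (chi-square per gene at least 9.89).

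Genes named are the 8 members, Kdm1a, the genes of lowest p in each list of muscle and myosin genes (up to 4), the genes of the tested relations, and the 3 closest patterns of Myh1, Myh2, Myh4 and Myh7. Others (Pax7, Sox6, Hdac4, Mef2a, Mef2c, Mef2d, Smyd1, Unc45b, Myl7, Nppa, Nppb, Tnni1, Mhrt and Myhas) were named after their values were seen. So were Tnni2, Ncam1, Chrna1, Tnnt2, Trpc4ap and Mir6923 and, from the marker lists, Col1a1, Col1a2, Col3a1, Lum, Pdgfra, Dcn and Gja1. The members, lists and tests were chosen with earlier results of these data known. Further lists held markers of smooth muscle, endothelial, adipocyte and Schwann cells.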

Additional observations from a re-analysis of the deposited data

How the results depend on the processing

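The log2 fold changes of the 8 genes kept their direction and stayed above the threshold in p in 90 of 96 comparisons with alternatives, and the share differences kept theirs in 54 of 60. The 12 changes of direction all came from leaving out 1 mouse. Over those 6 fits the log2 fold change of Myh7 lay between -0.138 and 0.062, of Myh1 between -0.097 and 0.386, of Myh4 between -0.607 and 0.148 and of Myh3 between -0.883 and 0.02. The share difference lay between -1.422 and 5.436 points for Myh7, -0.0196 and 0.004126 for Myh4, -0.2224 and 0.005452 for Myh3, and -0.004796 and 0.004126 for Myh6. The cause was not tested.

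Over all genes, 1 was called higher and 1 lower. DESeq2 called 33 higher and 9 lower, voom 2 higher, and edgeR without a filter 8 and 3. With 1 mouse left out, 1 to 2 were higher, with 2 without WT 1, and 0 to 1 lower, with 0 without WT 2 or any one LSD1-mKO mouse. Under a replicate block, 0 genes were called lower and 1 higher, and the log2 fold change of Myh7 was -0.053. Deviations of same-numbered mice correlated at -0.339, -0.122 and -0.162. The numbers thus gave no sign of pairing, which 3 mice a group cannot exclude. Calls in the gene lists (91 comparisons) and relations (6) did not move. With 3 mice a group, the interval of Myh1 reached 1.84 times WT and that of Myh7 1.29 times.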

Other observations

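Other heavy chain genes, which are not in the family total, were also at unequal levels in Sol. Of 6 non-sarcomeric or specialized heavy chain genes, all were listed, 5 were tested and 0 passed the threshold, with a median log2 fold change of 0.01. Myh9, the non-muscle chain, had a log2 fold change of -0.29 (SE 0.16, adjusted p = 0.777, edgeR) and was highest in WT 2 at 207.8 CPM. Myh13, the superfast chain of eye muscles, which shares read-length windows with 5 of the genes above, was at 8.61 to 14.0 CPM (log2 fold change -0.29, SE 0.19, adjusted p = 0.798, edgeR). Myh11, the smooth muscle chain, was at 87.4 to 116.6 CPM, with a log2 fold change of 0.01 (SE 0.12), and Myh10, another non-muscle chain, had 0.05 (SE 0.12).

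Among markers of other cells of the muscle, 0 passed the threshold in any list. The median log2 fold change was 0.01 for 4 smooth muscle, -0.05 for 4 endothelial, 0.09 for 5 adipocyte and -0.05 for 5 Schwann cell genes tested.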
